A study of Homo sapiens with 7 samples.

Results

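The MYC domain was taken as the stretch of chromosome 8 from 500 kb before the start of MYC to 1 Mb after its end, with MYC, PVT1 and POU5F1B as its named genes, and all CTCF peaks in it were described. It ran from 128247680 to 129755197 in hg19, a length of 1.51 Mb, and held 15 of the 33094 peaks of control cells and 14 of the 32917 peaks of PDS-treated cells. In the GENCODE 44 annotation of GRCh37, MYC lies from 128747680 to 128755197, PVT1 from 128806772 to 129199347 and POU5F1B from 128334428 to 128432311, all on the forward strand. The cells were K562, an established human erythroleukemia line, kept in RPMI-1640 medium with fetal bovine serum. Control cells were untreated and gave 2 CTCF samples and 1 IgG sample. The treated cells received 10 μM pyridostatin (PDS), a small molecule that stabilizes folded G-quadruplexes (G4s), for 24 h and gave 2 CTCF and 2 IgG samples. CTCF was precipitated from crosslinked chromatin and the DNA sequenced (ChIP-seq), with nonspecific IgG as the negative control. Peaks were called once per condition on both CTCF samples, so each condition has 1 peak list, with no value per replicate, no SD and no known depth, and the lists could not be tested against each other. The cell line was checked at CDKN2A, which K562 is known to lack: the 206.7 kb from MTAP to CDKN2B on chromosome 9 lay in a stretch without peaks of 6818.3 kb (control) and 6966 kb (PDS). A gene-sized stretch without a peak would by itself say little, since many long genes had none.

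MYC encodes a transcription factor that drives cell growth and division, and it stands in a region with few other coding genes. PVT1 is a long non-coding RNA gene next to it that hosts several miRNAs and holds enhancers in its introns, and POU5F1B is a retrogene copy of POU5F1, which encodes the pluripotency factor OCT4. CTCF is a zinc-finger protein that, together with cohesin, holds the ends of chromatin loops, and it can bring distant enhancers to MYC or keep them away from it. G4s are four-stranded structures of G-rich DNA, and the MYC promoter is a classic example of a sequence that folds into one.

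The peaks of both lists fell on 17 sites, of which 12 had a peak in both lists, 3 only in the control list and 2 only in the PDS list. Sites are named by the distance of their middle from the MYC start, with negative values upstream of it. The 17.5 kb formed by MYC and 5 kb on either side held 3 peaks of each list. PVT1 held 6 control and 5 PDS peaks, the 495 kb upstream of MYC held 3 of each, and the 555.8 kb downstream of PVT1 also held 3 of each. No peak was called in the 46.6 kb between MYC and PVT1. The domain carried 9.95 control and 9.29 PDS peaks per Mb, against 9.49 and 8.92 over chromosome 8 and 11.6 and 11.5 over all chromosomes. Around MYC the peaks were therefore dense compared with the domain, whose number per Mb as a whole was near that of its chromosome. The density around MYC was not set beside that around other genes.

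**Figure D1:**
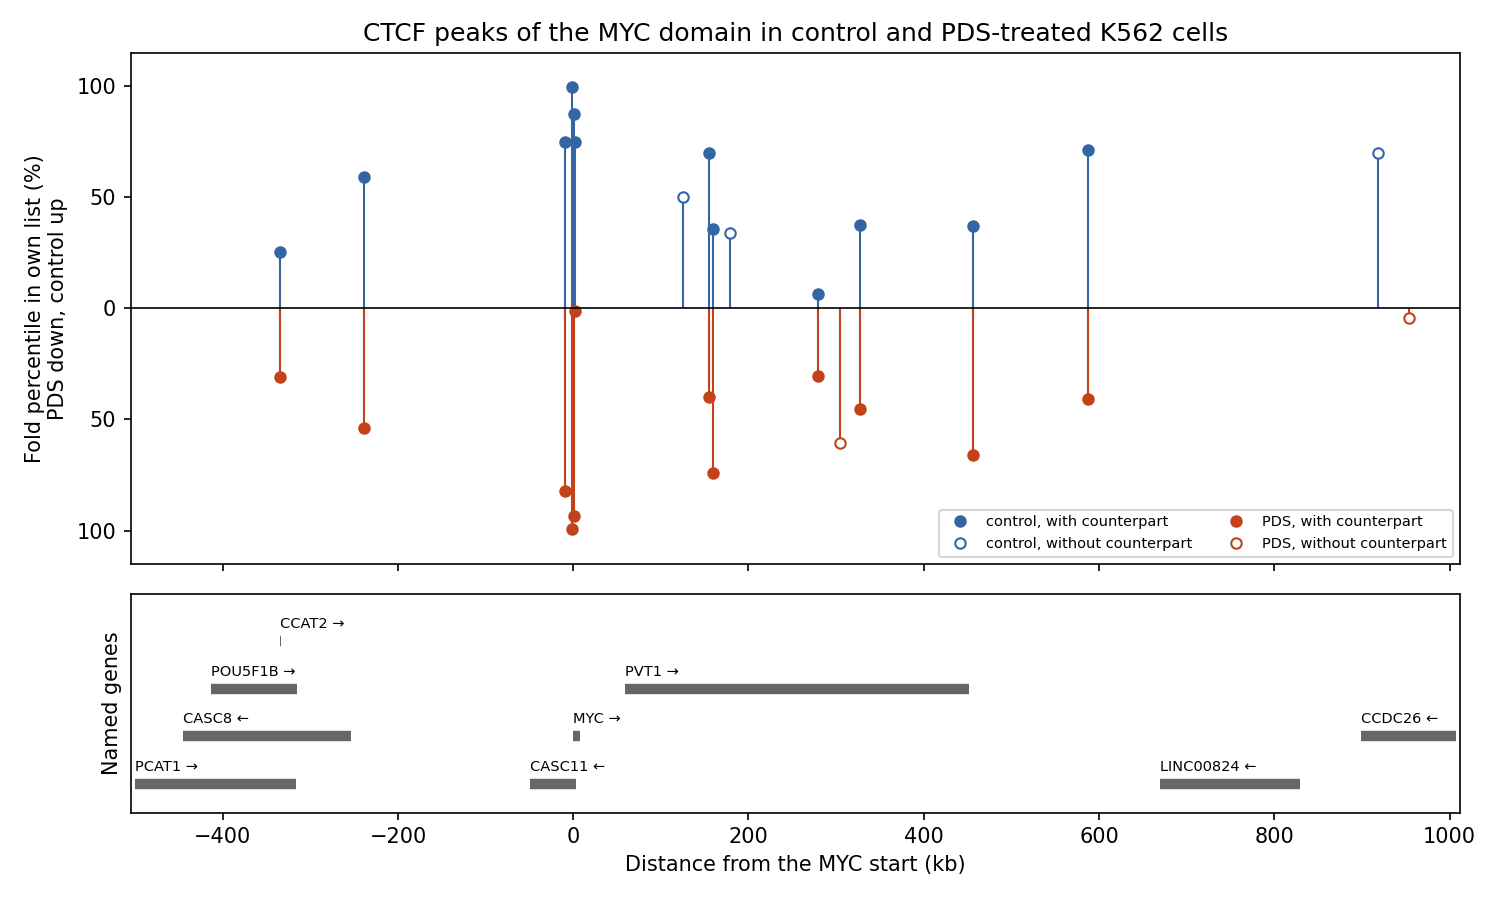
CTCF peaks of the MYC domain by distance from the MYC start (kb), with the height giving the percentile of each peak's fold over IgG within its own list (control upwards, PDS downwards) and open circles marking peaks without a counterpart in the other list. The lower panel shows PCAT1, CASC8, POU5F1B, CCAT2, CASC11, MYC, PVT1, LINC00824 and CCDC26 with their direction. The highest peaks of both lists stand at MYC, and the 5 open circles all lie downstream of it.

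A pair of values describes the height of a peak. Its fold is the CTCF signal over the IgG samples of the same condition, as the authors computed it, so the folds of the lists have different baselines, with medians of 26.5 (control list) and 16.7 (PDS list). The percentile is the share of peaks of the same list with an equal or lower fold, and it was also taken for the p-values of the peaks, where a high percentile means a small p-value. The control peaks of the domain had folds of 9.16 to 139 (median 29.6) and the PDS peaks folds of 5.51 to 52.9 (median 16.7). Their median fold percentile was 59.3 for the control list (binomial 95% interval of the median 35.9 to 74.7, n = 15) and 49.5 for the PDS list (30.5 to 82.1, n = 14). Without the peaks within 5 kb of MYC, it was 43.9 and 45.3. The median width was 240 bp (control) and 250 bp (PDS), and in the whole lists it was 360 and 300 bp. By p-value the median percentile was 53.0 (control) and 38.6 (PDS), and 44.9 and 30.8 without the peaks within 5 kb of MYC, where 3 of 11 PDS peaks stood above the middle of their list. The domain's peaks were thus near the middle of the lists by fold. By p-value, 8 of 15 control and 5 of 14 PDS peaks stood above the middle of their list. No interval is given for the p-value medians, so no departure from the middle is drawn from them. The intervals cover counting error only.

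The 3 sites at MYC serve as reference. The site at -1.4 kb, over an exon and a transcript start of CASC11, a long non-coding RNA gene on the strand opposite to MYC, had the highest fold of the domain in both lists, 139 (control) and 52.9 (PDS). The site at 0.9 kb, in a MYC exon, had folds of 49.0 and 32.4 and percentiles of 87.6 and 93.3. The site at 2.4 kb, also in a MYC exon, had a fold of 37.1 among the control peaks and of 5.51 among the PDS peaks, which placed it at percentiles 74.7 and 1.03. Hence by fold 2 of the 3 reference sites were high in both lists, and the third was high in the control list and among the lowest of the PDS list. By p-value the third site stood at percentiles 49.0 and 28.5, near the middle of the control list and in the lower part of the PDS list. The PDS peak of the third site was 100 bp wide, the narrowest width of that list, and its control peak was 300 bp wide.

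Next to these, an intron of CASC11 held the site at -9.5 kb, with peaks from 128737741 to 128738520 (control) and from 128737951 to 128738550 (PDS). The control peak had a fold of 37.4 (rank 8229) and the PDS peak a fold of 24.9 (rank 5903). It was the highest site outside the reference in both lists, at percentiles 75.1 and 82.1 by fold. By p-value it stood at 53.0 and 75.1. The control peak, 780 bp wide, was the widest of the domain.

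PVT1 had peaks at 7 sites, of which 4 were common to both lists. None lay at the start of the gene: the peak nearest to it was the MYC site at 2.4 kb, which ended 56.6 kb (control) or 56.7 kb (PDS) before it. The first peak inside PVT1 was centred 65.7 kb into the gene in control cells and 95.7 kb in PDS-treated cells, and the last 267.6 kb into the gene in both, at 68.2% of its length of 392.6 kb. The final part of PVT1, with MIR1208, was free of peaks. The miRNA genes MIR1205, MIR1207 and MIR1208, all hosted by PVT1, had no peak within 5 kb, and neither had LINC02912, a long non-coding RNA gene inside it. MIR1204 and MIR1206 were not analysed here.

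The common sites of PVT1 lay at 154.8, 159.3, 279.4 and 326.7 kb. At 154.8 kb, the peaks covered a PVT1 exon with a transcript start 28 bp from their middle, and the fold was 34.3 (control) and 15.2 (PDS). PVT1 has 132 different transcript starts in the annotation, so a nearby start is common in it. The next site downstream, 4.3 kb (control) and 4.0 kb (PDS) further, was the intronic one at 159.3 kb, with folds of 22.5 and 22.1. The percentiles of these neighbours ran in opposite directions, from 69.8 to 40.0 at 154.8 kb and from 35.9 to 74.1 at 159.3 kb. By p-value the first went from 33.7 to 46.4 and the second from 53.0 to 51.3, so that both moved against the direction seen by fold.

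The intronic site at 279.4 kb was low in both lists by fold, with 9.16 (control, percentile 6.43) and 13.6 (PDS, percentile 30.5). Its peaks overlapped by 110 bp, and their middles lay 155 bp apart, the largest shift among the common sites of the domain. At 326.7 kb, also in an intron, the peaks ranked 20595 (control) and 17997 (PDS) by fold, at percentiles 37.8 and 45.3. Both of these sites were thus below the middle of their lists.

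Of the remaining PVT1 sites, 2 were found in control cells and 1 in PDS-treated cells. The control peak at 124.8 kb, from 128872381 to 128872560 in an intron, had a fold of 26.5 (percentile 50.0), and the nearest PDS peak was 29.8 kb away. The control peak at 179.1 kb, from 128926621 to 128926980 and likewise intronic, had a fold of 22.0 (percentile 34.2), with the nearest PDS peak at 19.4 kb. The PDS peak at 304.3 kb, from 129051901 to 129052000 over a PVT1 exon, had a fold of 18.7 (percentile 60.5), and no control peak lay within 22.3 kb of it. All 3 therefore stood apart from any peak of the other list, and by p-value they ranked 28127 and 20907 (control) and 27048 (PDS), all in the lower part.

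POU5F1B held 1 site, at -334.5 kb, where the peaks ran from 128412961 to 128413500 (control) and from 128412901 to 128413500 (PDS). The annotation places it in an intron of POU5F1B, in introns of the long non-coding RNA genes PCAT1 and CASC8, and in an exon of CCAT2, whose transcript start was 0.6 kb from the middle of the peaks. The folds were 18.4 (percentile 25.5) and 13.7 (percentile 30.7), whereas by p-value the peaks stood at 65.9 and 73.2. The site was therefore low by fold and in the upper part of both lists by p-value. The start of POU5F1B was 78.5 kb from the nearest peak in both lists, and the nearest of its 3 transcript starts was 7.8 kb from one. Between this site and MYC, 1 further site at -238.9 kb lay outside any annotated gene, with folds of 29.6 and 17.3. It ranked at percentiles 59.3 and 53.6 by fold, but at 0.378 and 47.5 by p-value, so that its control peak was among the weakest calls of its list. A gap of 228.9 kb without a peak followed, up to the CASC11 site at -9.5 kb.

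Downstream of PVT1, 2 sites were common and 2 were not. At 455.8 kb, outside any gene, the fold was 22.8 (control) and 19.9 (PDS). At 587.4 kb, 0.3 kb from the start of a long non-coding RNA gene known only by its identifier, ENSG00000286034, it was 35.1 and 15.3. The fold percentile was higher in the PDS list at the first (36.9 and 66.0) and lower at the second (71.3 and 40.9), whereas by p-value it was lower in the PDS list at both (68.9 and 23.7, and 59.4 and 30.8). No peak was called over the next 330.4 kb, where LINC00824 lies. In CCDC26, a long non-coding RNA gene at the far end of the domain, the control list had a peak at 918.1 kb over an exon, with a fold of 34.5 (percentile 70.0). The PDS list had a peak of 100 bp at 953.7 kb in an intron, with a fold of 7.31 (percentile 4.44). These peaks lay 35.4 kb apart and had no counterpart. The genes overlapped by a peak of the domain were PCAT1, CASC8, POU5F1B, CCAT2, CASC11, MYC, PVT1 and CCDC26 in both lists, and the site at -334.5 kb accounts for 4 of these.

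Peaks without a counterpart made up 3 of 15 control peaks (20%, Wilson 95% interval 7.05 to 45.2%) and 2 of 14 PDS peaks (14.3%, 4.01 to 39.9%), with an overlap of at least 1 bp counted as shared. In the whole lists, 22.0% of control peaks and 21.4% of PDS peaks had no counterpart, and each of these shares lies inside the domain's interval, so no difference from the lists was detectable with so few peaks. Without the peaks within 5 kb of MYC, it was 3 of 12 and 2 of 11. Each of the 5 peaks lay at least 19.4 kb from the other list, and the PDS-only peaks were both 100 bp wide, against 180 to 360 bp for the control-only peaks. In the whole lists, the median width of such peaks was 100 bp (PDS) and 180 bp (control). The narrowest width that a list allows was held by 2 of 15 control peaks of the domain (120 bp) and 3 of 14 PDS peaks (100 bp), against 13.8% and 18.4% of all peaks.

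At the 12 common sites, the peak of the PDS list had the higher fold percentile in 7 and the lower in 5, with a median change of 5.43 percentile points (binomial 95% interval of the median -29.8 to 24.1). The direction of this median was not stable: it was -0.529 over the 9 sites with centres at most 100 bp apart, of which 4 were higher in the PDS list. Over the 24633 sites with 1 peak in each list, 51.4% had the higher percentile in the PDS list and the median change was 0.685 points. By p-value, 7 of the 12 sites were higher in the PDS list, against 56.3% over all such sites. The largest falls by fold were at 2.4 kb, by -73.7 points, at 587.4 kb, by -30.4, and at 154.8 kb, by -29.8, and the largest rises were at 159.3 kb, by 38.2, and at 455.8 kb, by 29.1. These values have no replicate error. Of these 5 sites, those at 154.8, 159.3 and 455.8 kb had p-value percentiles that moved the other way, so that fold and p-value shared their direction at only 2 of them.

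**Figure D2:**
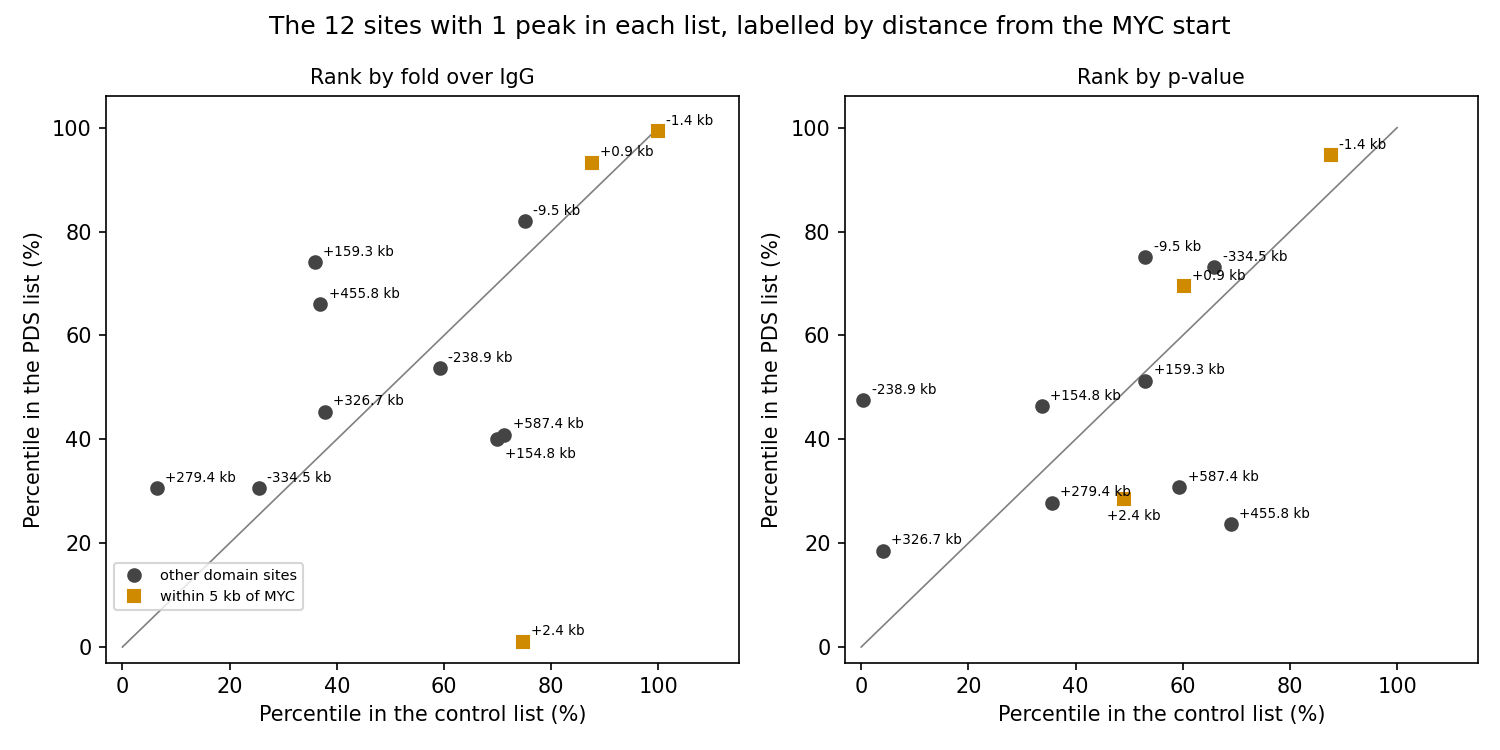
Percentile of each of the 12 common sites in the control list (horizontal axis) and the PDS list (vertical axis), by fold over IgG on the left and by p-value on the right, with labels giving the distance from the MYC start and squares marking the 3 sites within 5 kb of MYC. By fold the MYC site at 2.4 kb lies farthest from the diagonal, at 74.7 and 1.03, and by p-value the sites at -238.9 and 455.8 kb do.

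A G4 motif was taken as 4 G-runs, each of 3 or more G, whose spacers measured 1 to 7 nt, and both strands were searched. Such motifs were found 158 times in the domain, or 105 per Mb, against 112 per Mb on chromosome 8 and 133 per Mb over all chromosomes. They were unevenly spread. PVT1 held 65, which is 16.6 per 100 kb, whereas the stretch upstream of MYC held 9.70 per 100 kb and that downstream of PVT1 5.40. MYC with 5 kb on either side held 8, or 45.7 per 100 kb. PVT1 was also richer in GC, at 45.9% against 41.9% for the domain and 40.2% for chromosome 8. None of the 65 motifs of PVT1 lay inside a CTCF peak of either list. The share inside a peak was also low elsewhere, at 1.96% (control) and 2.08% (PDS) over all chromosomes and 1.44% and 1.45% on chromosome 8. Within 1 kb of a peak lay 1 motif of PVT1 for the PDS list and none for the control list, against 8.20% of all motifs for either list. Around the PVT1 start, 4 motifs were found within 5 kb and no peak.

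A G4 motif lay inside 2 of 15 control peaks (13.3%, Wilson 95% interval 3.74 to 37.9%) and 1 of 14 PDS peaks (7.14%, 1.27 to 31.5%), and all 3 of these peaks were at MYC. In the whole lists, 16.0% of control and 17.1% of PDS peaks held a motif, inside both intervals. At the MYC site at 0.9 kb, both peaks covered the same motif of 23 bp on the reverse strand, from 128748616 to 128748638. At 2.4 kb, a motif of 29 bp from 128749917 to 128749945 reached into the control peak, which began at 128749921, and ended 5 bp before the PDS peak, which began at 128749951. The difference in motif content between the lists at this site was therefore one of where the peak borders lay, on position grids of 60 bp (control) and 50 bp (PDS). With the central 200 bp in place of the whole peak, 6.67% of control and 14.3% of PDS peaks of the domain held a motif. With 1000 bp at the peak centre, it was 13.3% of control and 28.6% of PDS peaks. Both windows turn the order of the lists around, but with 15 control and 14 PDS peaks no direction between the lists is drawn from it. Whole-list shares are not given for these windows, so the values were not set against all peaks.

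Outside MYC, none of 12 control and none of 11 PDS peaks held a motif, which allows shares of up to 25% and 27.3%, respectively. Motifs within 1 kb were counted at 3 of 15 control peaks, all at MYC, and at 5 of 14 PDS peaks, against 43.8% and 46.8% in the whole lists. Without the sites at MYC, it was 0 of 12 control peaks (Wilson 95% interval 0 to 24.2%), below the share of the list, and 2 of 11 PDS peaks (18.2%, 5.14 to 47.7%). These 2 PDS peaks were the ones found in PDS-treated cells only, at 304.3 kb with a motif 386 bp away and at 953.7 kb with one 359 bp away. Both were 100 bp wide and low by p-value, at percentiles 17.8 and 13.7. No share within 1 kb is given for all peaks without a counterpart, so no link with PDS is drawn from these 2. The nearest motif of the 3 control-only peaks was 1364 to 3879 bp away. Over the common sites outside MYC, it was between 1529 and 11800 bp away.

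**Figure D3:**
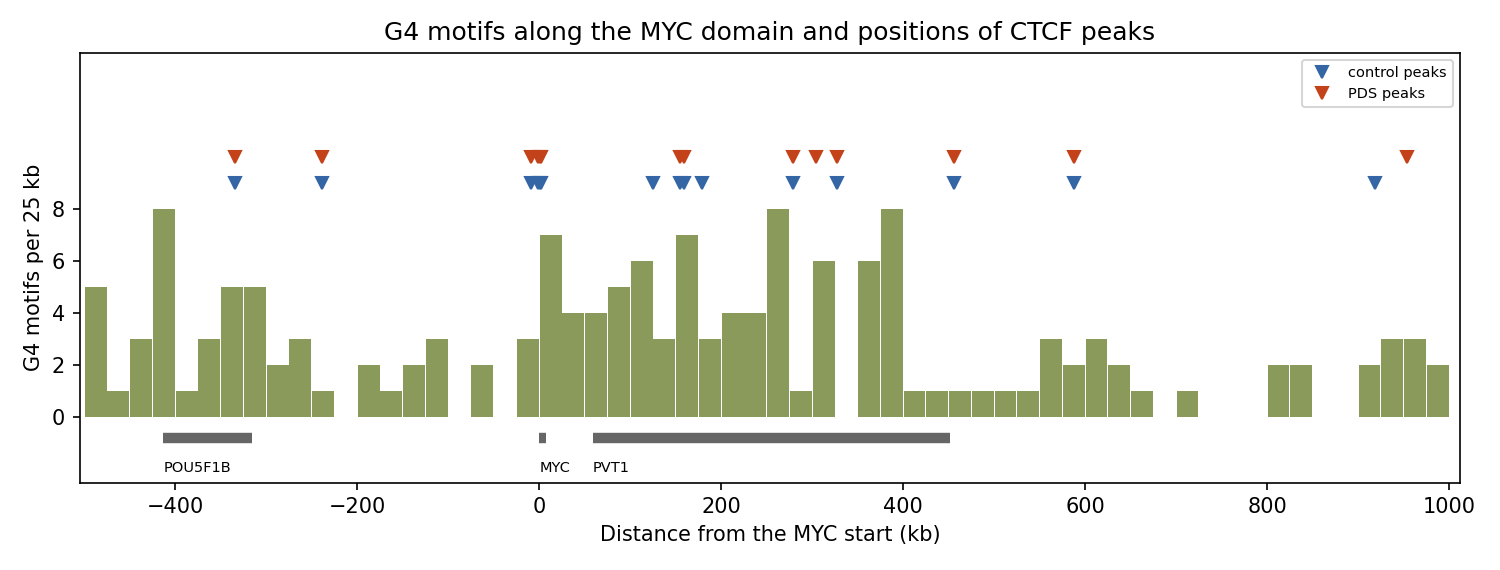
G4 motifs per 25 kb of the MYC domain (bars) by distance from the MYC start (kb), with triangles for the CTCF peaks of each list and grey bars for MYC, PVT1 and POU5F1B. Motifs reached 8 per 25 kb over PVT1 and also 425 kb upstream of MYC, and they were sparse downstream of PVT1.

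A published CTCF consensus of 15 bases, known from ChIP with exonuclease digestion, was searched on both strands in the 200 bp at the centre of each peak. It was present in none of the 15 control and none of the 14 PDS peaks, which allows shares of up to 20% and 21.4%, against 13.5% and 9.76% in the whole lists. With 1 mismatch allowed, it was found in 4 of 15 control peaks (26.7%, Wilson 95% interval 10.9 to 52.0%) and 3 of 14 PDS peaks (21.4%, 7.57 to 47.6%), against 43.2% and 33.9%. These matches were at 326.7, 455.8 and 587.4 kb in both lists, on the same bases, and at 2.4 kb in the control list. All 4 were on the reverse strand. At 326.7 kb the match, from 129074422 to 129074436, lay inside the PDS peak and after the end of the control peak, at 129074400.

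The highest site of the domain, at -1.4 kb, had no match with 1 mismatch, and its best match in either list had 2. With 2 mismatches, a number chosen after the first results were seen, 9 of 15 control peaks (60%, interval 35.7 to 80.2%) and 5 of 14 PDS peaks (35.7%, 16.3 to 61.2%) had a match, against 77.6% and 70.7% in the whole lists. The whole-list share lay above the interval for the PDS peaks and inside that for the control peaks. At the common sites at -9.5, 2.4 and 159.3 kb, the control window held a match and the PDS window, whose centre lay 70 to 120 bp away, did not. Peaks of a domain are few and are not replicates, and the same DNA enters both lists at the common sites. A window without a match says only that these letters were not found in it.

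**Figure D4:**
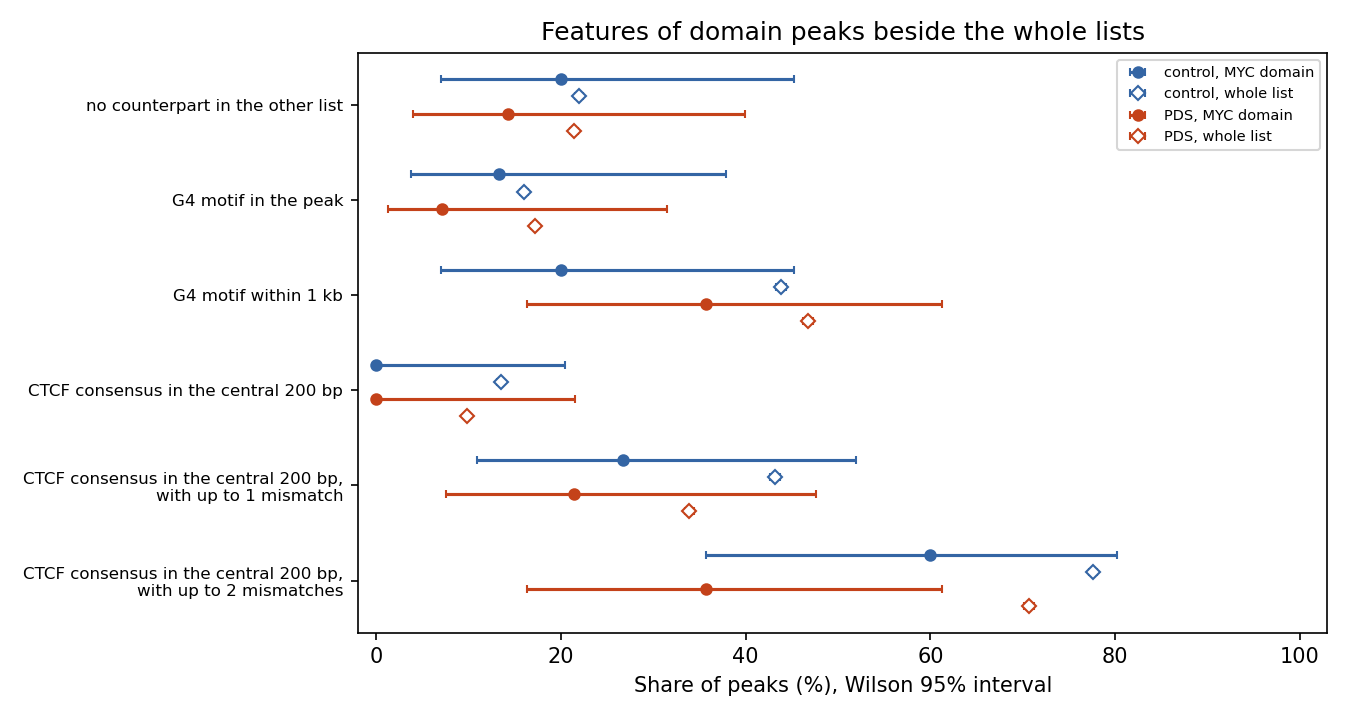
Share of peaks (%) of the MYC domain (filled circles, 15 control and 14 PDS peaks) and of the whole lists (open diamonds) with each feature, with Wilson 95% intervals for counting error. With the sites at MYC included, the whole-list value lies inside the domain's interval for each feature plotted except the consensus with up to 2 mismatches in the PDS list, at 35.7% against 70.7%.

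The central 200 bp of the domain's peaks had a median GC content of 51.5% (control) and 50.8% (PDS), against 52% and 53.5% in the whole lists. The highest values were at MYC, at 65% and 71% for the site at 0.9 kb and at 67% and 73.5% for that at 2.4 kb, with 18 to 21 CpG dinucleotides in 200 bp. Outside MYC the control peak at 124.8 kb in PVT1 was the most GC-rich, at 64.5% with 8 CpGs. The other peaks outside MYC had 0 to 5 CpGs.

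PVT1 was placed among the 732 coding and long non-coding genes whose length was within 25% of its own, a count that includes PVT1 itself. It had 1.53 control and 1.27 PDS peaks per 100 kb, against medians of 0.551 and 0.311 for these genes and of 0.250 and 0 for the 222 long non-coding RNA genes among them. There were 102 genes above PVT1 among control cells and 138 after PDS, while 185 and 239 genes had no peak at all. The genes nearest to PVT1 in both values were ENSG00000288700, a long non-coding RNA gene, with 7 control and 6 PDS peaks over its 466 kb, MYO1D, which encodes an unconventional myosin, with 6 and 5 peaks over 385 kb, and MED13L, which encodes a Mediator subunit, with 5 and 4 over 320 kb. PVT1 itself had 6 and 5 over 392.6 kb. By these counts it was in the upper part of genes of its length, and the likeness rests on 2 lists only. With the 50% strongest calls by p-value in each list, PVT1 kept 1 peak of each, the site at 159.3 kb, and the other genes were not compared at that stringency.

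**Figure D5:**
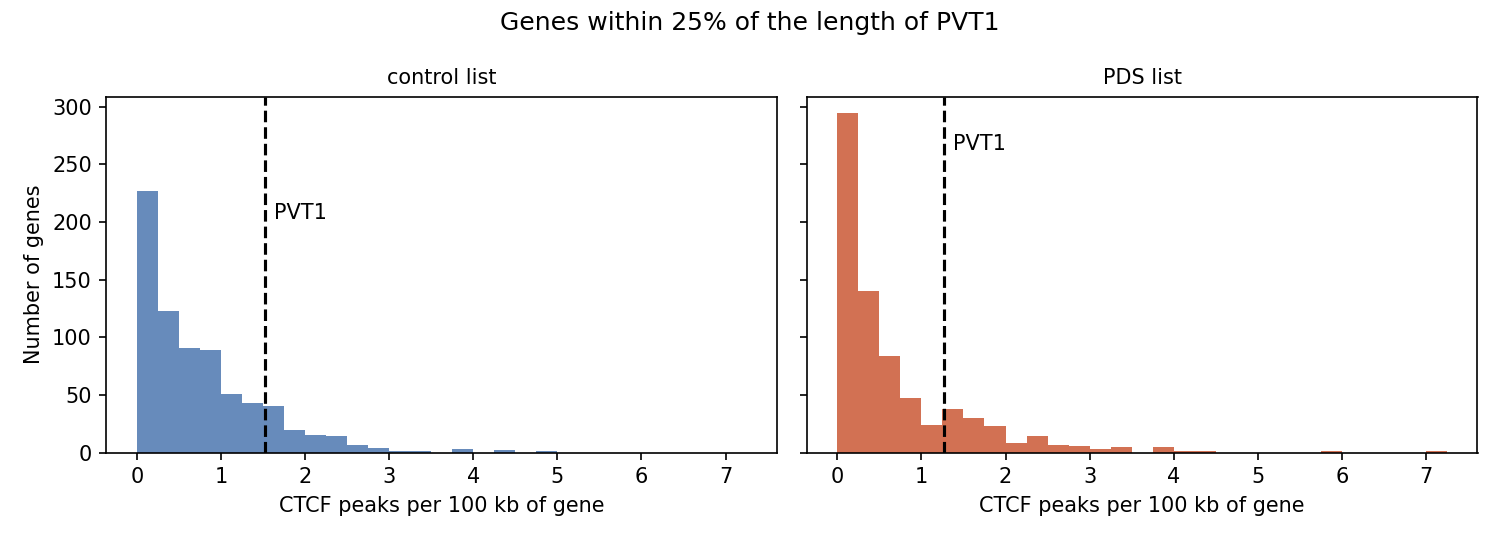
Number of genes (vertical axis) by CTCF peaks per 100 kb of gene (horizontal axis) for the 732 genes within 25% of the length of PVT1, in the control list (left) and the PDS list (right). The dashed line marks PVT1, at 1.53 and 1.27, above the medians of 0.551 and 0.311.

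Across the genome, the genes of the MYC network were counted with peaks in the gene or within 5 kb of it. MAX is the partner of MYC on DNA, MXD1, MXI1, MXD3, MXD4, MNT and MGA compete with MYC for MAX, and MLX works with MLXIP and MLXIPL. With MYC, MYCN and MYCL, all 13 genes had a peak in the control list and all 13 in the PDS list, against 62.7% and 59.3% of the 20163 protein-coding genes. The counts were not adjusted for gene length. MYC, with a fold of 139, had the highest peak of the network in the control list, followed by MGA with 74.8 and MXD1 with 66.3. In the PDS list MYC, at 52.9, was followed by MNT with 34.4 and MGA with 31.9. In both lists this MYC value came from the site at -1.4 kb, which lies over CASC11 and outside MYC itself. The highest peak inside MYC had folds of 49.0 (control) and 32.4 (PDS). These were lower than the folds of MGA and MXD1 (control) and of MNT (PDS). MAX itself had 1 peak in each list, at fold percentile 11.1 (control) and 72.6 (PDS). POU5F1, the parent of POU5F1B, had no peak within 5 kb in either list.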

How the data were processed

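CTCF ChIP-seq peaks of control and PDS-treated K562 cells were used. The authors aligned reads to hg19 (Bowtie2 2.2.3), filtered out duplicates and poorly mapped reads (SAMtools), and ran PePr on the CTCF replicates of a condition together, with IgG as background. The fold of each peak over IgG and the p-value of each peak were deposited as the authors computed them and served to rank peaks inside their own list. The deposited score was a constant multiple of the fold, and it was not used, nor was the adjusted p-value of the authors. The lists hold no counts, so the depth is unknown.

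The reference was the GRCh37 sequence, which is the same build, with the GENCODE 44 annotation, and no peak extended past the end of a chromosome. In each list 24 peaks on other sequences were left out of the motif searches. Motifs within a region do not overlap each other on a strand. Site overlap and shares were computed with pandas 2.3.3, scipy 1.17.1, numpy 2.4.6 and pyfaidx 0.9.0.4 under Python 3.11.15, and figures with matplotlib 3.10.9. The limit for a count of 0 is 3 counts. All 200 simulated G4 motifs, 200 consensus matches and 4000 shared intervals were recovered. The domain, genes and lists were chosen with earlier results of these data known. Named genes were the members, genes overlapped by a peak, listed neighbours, the MYC network and the 3 genes most like PVT1. Also named were ENSG00000286034, whose start lay near a peak, the genes of the cell line check and the nearest coding genes beyond the domain. Of the 19 listed neighbours, 9 lay in the domain, 3 lay outside it and 7 had no match in the annotation by name and were not analysed. No comparison was tested between conditions, because each has 1 list. Alternatives covered the overlap, merging, stringency, window, motif and ranking value.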

Additional observations from a re-analysis of the deposited data

How the results depend on the processing

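Of 63 values under alternatives, 50 stayed within the counting interval of the reported value, or within 1.5 times it for counts, 12 moved and 1 reversed. When each list was limited to its 50% of strongest calls by p-value, fewer peaks remained by construction, 8 control and 5 PDS peaks in the domain and 1 of each in PVT1. Of the peaks left, 100% (PDS) and 62.5% (control) had a counterpart among those left in the other list. The 5 PDS peaks left, at -334.5, -9.5, -1.4, 0.9 and 159.3 kb, each overlapped a control peak that was left. Control peaks were also left at 455.8 and 587.4 kb, but the limit removed their PDS counterparts, at p-value percentiles 23.7 and 30.8. The control peak left at 918.1 kb had no counterpart in the full PDS list either. No whole-list share is given at this stringency, so these shares were not set against all peaks. With runs of at least 2 G, 80% of control and 85.7% of PDS peaks of the domain held a G4 motif, a looser motif by construction. Its share over the whole lists is not given, so these values were not set against all peaks either. Without the peaks within 5 kb of MYC, the share with a G4 motif was 0% in both lists. The CTCF consensus was found in 26.7% of control peaks with 1 mismatch, and in 60% of control and 35.7% of PDS peaks with 2, the last chosen after seeing the data. The median change in fold percentile at common sites was -0.529 when sites with centres over 100 bp apart (-9.5, 159.3 and 279.4 kb) were dropped, which left 9 sites, 4 of them higher in the PDS list.

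No paired analysis was possible because the replicates of a condition went into a single joint peak list, and for this no replicate was left out either. The depth is unknown, and a peak missing from a list means only that it was not called.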

Other observations

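Beyond the domain, chromosome 8 was followed to the nearest coding genes. In the 677 kb towards LRATD2, the control list had 5 peaks (7.39 per Mb) and the PDS list 6 (8.86 per Mb), against 9.95 and 9.29 per Mb in the domain. Of these peaks 1 and 2 had no counterpart, against 22.0% and 21.4% of all peaks. None held a G4 motif, against 16.0% and 17.1% of all peaks, and 1 in each list held the CTCF consensus, against 17.3% and 14.4%, and the peaks are too few to set these counts apart from the lists. In this stretch the highest fold percentile was 94.0 (control) and 79.3 (PDS), at -858.8 and -858.6 kb from the MYC start.

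In the 1005.2 kb towards GSDMC, both lists had 13 peaks, or 12.9 per Mb, so that the density lay below that of the domain on one side and above it on the other. All but 1 peak of each list had a counterpart, where 22.0% and 21.4% of all peaks had none, and no test was made of any of these counts. Most of this stretch is taken up by CCDC26. The CTCF consensus, absent from the peaks of the domain, lay anywhere within the peak in 4 of the 13 peaks of each list, against 17.3% (control) and 14.4% (PDS) of all peaks, and 1 of the 13 held a G4 motif, against 16.0% and 17.1%. The highest peaks by fold stood at 1952.2 kb in the control list (percentile 89.9) and at 1952.1 kb in the PDS list (percentile 92.0). The peak nearest to the domain's end was 116.2 kb (control) or 116.3 kb (PDS) beyond it, and before its start the nearest was 28.1 kb away in both.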
